A study of Mus musculus with 12 samples.

Results

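The genes that make, store, recapture and break down dopamine were examined in the dorsal striatum (caudate putamen) of adult mice exposed to ethanol in early development. Th, Ddc, Slc6a3, Slc18a2, Maoa and Maob were chosen by name, and every probe that GEO's platform annotation gives to exactly 1 of these symbols was taken. The 6 genes had 9 probes of the 45281 on the Illumina bead array, which names 19057 genes in all. Total RNA came from male C57BL/6J mice aged 12 weeks, with 6 samples whose mothers had 10% (v/v) ethanol to drink by choice from day 0.5 to day 8.5 after mating, and 6 control samples. The labels name neither the drink of the control mothers nor the amount of ethanol taken. They also do not say that the samples are separate mice from separate litters, so the p-values reflect only how these samples spread, which may be technical. The sample titles carry 1 of 2 long numbers, taken here as 2 array chips although the labels do not name them so. Each held 3 samples of each group.

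Dopamine is made from tyrosine in successive steps. Tyrosine hydroxylase, encoded by Th, adds a hydroxyl group in the rate-limiting step and needs the cofactor tetrahydrobiopterin. Aromatic amino acid decarboxylase, encoded by Ddc, then forms dopamine with the help of vitamin B6. The vesicular transporter VMAT2, from Slc18a2, loads dopamine into vesicles, and the dopamine transporter, from Slc6a3, takes it back up after release. Monoamine oxidases A and B, from Maoa and Maob, oxidise it at the outer mitochondrial membrane. The striatum receives dense dopamine axons, but the cell bodies that hold most of the Th, Slc6a3 and Slc18a2 transcript lie in the midbrain, so these 3 genes are known for low mRNA in striatal tissue. Monoamine oxidase B is known in brain mainly from astrocytes and serotonin neurons.

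The promoter windows of Th and Slc18a2 are shown because both genes mark dopamine neurons and both windows hold the cAMP response element, whose copy in the rat Th promoter is known to carry responses to cAMP. Both are RefSeq windows of assembly GRCm38.p6, from 250 bases before to 50 after the annotated start, written 5′ to 3′ with the element TGACGTCA in capitals. The Th window is chr7:142899946-142900245 on the minus strand and the Slc18a2 window chr19:59260628-59260927 on the plus strand.
Th: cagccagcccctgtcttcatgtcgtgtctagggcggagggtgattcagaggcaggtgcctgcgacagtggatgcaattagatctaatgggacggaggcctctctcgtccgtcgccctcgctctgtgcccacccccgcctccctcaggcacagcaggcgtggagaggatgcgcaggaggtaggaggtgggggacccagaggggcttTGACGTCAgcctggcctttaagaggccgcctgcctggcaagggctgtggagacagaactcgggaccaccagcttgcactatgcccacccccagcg
Slc18a2: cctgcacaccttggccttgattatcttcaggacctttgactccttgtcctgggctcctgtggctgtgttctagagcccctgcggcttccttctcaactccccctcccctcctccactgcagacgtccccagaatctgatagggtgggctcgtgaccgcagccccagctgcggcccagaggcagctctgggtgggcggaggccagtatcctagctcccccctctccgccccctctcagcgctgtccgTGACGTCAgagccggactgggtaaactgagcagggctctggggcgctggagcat
In the Th window the element starts 45 bases before the annotated start, and in the Slc18a2 window it starts 4 bases before it and runs across it. The palindrome TGACGTCA was found in 2 of 6 windows of the examined genes (5 genes had a window, Ddc with 2) and in 588 of 32851 windows of all genes (1.79%). The element AAAGGTCA, known to bind Nr4a2, was found on either strand in 1 Ddc window and in 1.51% of all windows. The GC box GGGCGG was found on either strand in the windows of Th, Slc6a3, Slc18a2 and Maoa and in 35.7% of all. Such matches describe letters and do not show binding.

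The 12 arrays had median raw intensities of 136.1 to 153.2, and 19452 to 21949 probes were detected on each, at a detection p-value under 0.05. The lowest intensity that counted as detected was 141.1 to 162 across arrays. Of 16 listed markers of striatal projection neurons 13 were tested, with a mean log2 level of 12.28 ± 0.06 in the control group and of 12.24 ± 0.15 in the ethanol group (SD, n = 6). Ethanol 3 and ethanol 4 stood apart in thalamus markers, at 8.39 and 8.46 against 7.48 to 7.76 in the other samples, and results that turn or move without them are given both ways. In such bulk tissue, fewer cells of a type and less RNA per cell cannot be told apart.

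Transcripts of 3 of the 6 genes were detected on every array, Th only just. Th, Ddc and Maob had 4 probes detected on all 12 arrays, and these were tested. Slc18a2 and Maoa, with 1 probe each, were detected on 0 arrays, as were 1 of 3 Ddc probes and 1 of 2 Maob probes, and Slc6a3 was detected on 3. A probe below background gives no measure of its transcript, and at this depth of signal a difference in these genes was not detectable.

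**Figure D1:**
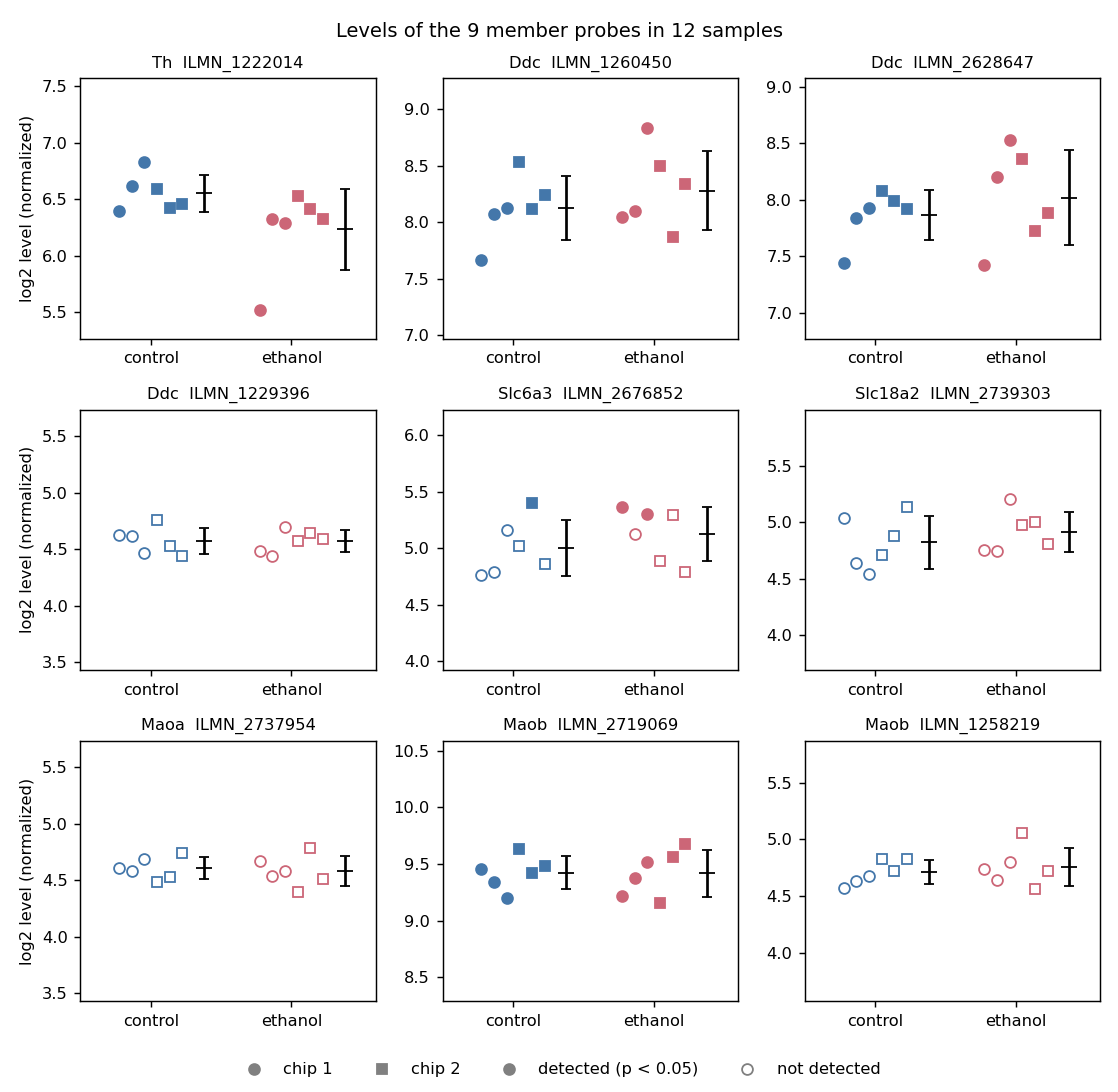
Normalized log2 level of each of the 9 probes (vertical axis, every panel spanning the same number of log2 units) in the control and ethanol-exposed samples. Filled points were detected and open points not, circles are chip 1 and squares chip 2, and the bar beside each group is its mean ± SD (n = 6). Th, 2 Ddc probes and 1 Maob probe were detected on 12 arrays, and ethanol 1 lies apart from the other Th values at 5.52.

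Th, the rate-limiting enzyme gene, had the lowest values in ethanol-exposed samples, close to background in both groups. The raw intensity of its probe, ILMN_1222014, had a lowest, median and highest value of 188.6, 207.1 and 237.6 in controls and of 169.3, 191.6 and 203.8 in ethanol-exposed samples. These raw values were only 1.05 to 1.51 times the lowest detected intensity of the same array. On the normalized log2 scale the lowest, median and highest were 6.39, 6.52 and 6.83 in controls and 5.52, 6.32 and 6.53 in ethanol-exposed samples. Of the ethanol-exposed samples 4 lay below the lowest control, but the ranges overlapped. The share of all tested probes with such a count is not given. The difference, ethanol minus control, was −0.32 (SE 0.15), and its 95% interval corresponds to 0.646 to 0.997 times the control level.

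The Th difference did not pass the test. Its adjusted p was 0.850 in limma's test, with Benjamini-Hochberg adjustment over 20296 probes, and the unadjusted p was 0.0472. Of all tested probes 5.79% had an unadjusted p under 0.05, 2.89% with lower and 2.9% with higher means in ethanol-exposed samples, and 0% had an adjusted p under 0.05. The two-sided exact permutation over the 924 divisions of the 12 arrays gave an unadjusted p of 0.0281. Without ethanol 1 the difference was −0.18 (adjusted p = 0.878 in limma's test), and it was −0.13 without background correction (adjusted p = 0.828). Without ethanol 3 and ethanol 4 it was −0.41 (adjusted p = 0.893).

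The Th difference was −0.57 on chip 1 and −0.07 on chip 2. Chip 1 held ethanol-exposed values of 5.52 to 6.32 and control values of 6.39 to 6.83, which do not overlap. On chip 2 the ranges were 6.33 to 6.53 and 6.42 to 6.59, which overlap. Fitted on chip 1 and chip 2 alone (n = 3 per group), Th had adjusted p of 0.758 and 0.896 in limma's test. How many other probes separate the groups on chip 1 was not counted, so this separation is not shown to be particular to Th. The difference between the chips was 0.50 (SE 0.27, adjusted p = 0.558 in limma's interaction test), so it did not pass either, and it was 0.24 without ethanol 1. For this interaction 9.98% of all tested probes had an unadjusted p under 0.05, and 0% passed after adjustment. The unadjusted p of Th was 0.0861.

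Ddc, whose enzyme forms dopamine and also serotonin, had 2 detected probes that both gave slightly higher means in ethanol-exposed samples without passing the test. The brighter, ILMN_1260450, had a lowest, median and highest log2 level of 7.66, 8.12 and 8.54 in controls and of 7.87, 8.22 and 8.83 in ethanol-exposed samples. The dimmer, ILMN_2628647, had 7.44, 7.92 and 8.07 in controls and 7.42, 8.04 and 8.53 in ethanol-exposed samples. The groups overlapped on both, ethanol 3 being highest on both probes. The difference was 0.15 (SE 0.16) on the brighter probe and 0.15 (SE 0.17) on the dimmer, with adjusted p of 0.938 and 0.941 in limma's test. The 95% intervals corresponded to 0.873 to 1.42 and 0.864 to 1.43 times the control level. The third Ddc probe, ILMN_1229396, which the annotation ties to a different cDNA entry from the other two, had raw intensities of 103.5 to 133 and was not detected.

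The small Ddc difference rested on few samples. Without ethanol 3 it was 0.04 on the brighter probe and 0.05 on the dimmer, and without ethanol 3 and ethanol 4 its sign turned, to −0.04 and −0.06. Without ethanol 5 it was 0.24 on the brighter probe, and without ethanol 1 it was 0.27 on the dimmer. Without control 1, the lowest control on both probes, it was 0.06 and 0.07. By chip, the difference of the brighter probe was 0.37 on chip 1 and −0.07 on chip 2, and that of the dimmer 0.32 and −0.01. The interaction of group and chip did not pass, with adjusted p of 0.663 and 0.778 in limma's test.

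The transporter genes were at or below the detection limit. Slc6a3, the dopamine transporter gene, had a lowest, median and highest raw intensity of 128, 139.5 and 154.3 in controls and of 125.3, 146.4 and 163.4 in ethanol-exposed samples. It was detected on 1 control array and on 2 ethanol arrays, too few to be tested, and the groups overlapped throughout. Slc18a2, the VMAT2 gene, had 124.4, 129.4 and 147 in controls and 126.1, 136.2 and 154.5 in ethanol-exposed samples, with 0 detections in either group. No fold change is given for these genes, since both groups had only a bound.

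Of the oxidase genes, Maob was well measured and differed least between the groups. Its detected probe, ILMN_2719069, had a lowest, median and highest log2 level of 9.20, 9.44 and 9.64 in controls and of 9.16, 9.45 and 9.67 in ethanol-exposed samples. The ranges coincided almost wholly. The difference was −0.01 (SE 0.10, adjusted p = 0.996 in limma's test), with a 95% interval of 0.854 to 1.16 times the control level. Of the 4 tested probes this one had the narrowest interval, and smaller changes than its bounds were not excluded. The other Maob probe, ILMN_1258219, had raw intensities of 112.9 to 140.1 and was not detected, although the annotation ties both Maob probes to the same transcript. The Maoa probe, ILMN_2737954, was not detected at 102.1 to 133.2, so the A form was not measured here.

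**Figure D2:**
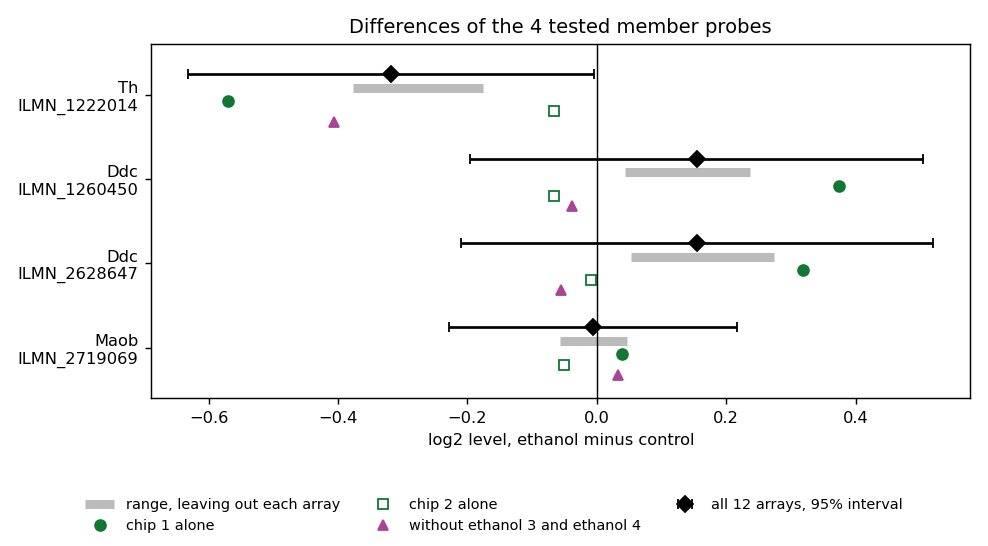
Difference in log2 level, ethanol minus control (horizontal axis), of the 4 tested probes. Diamonds are the fit over 12 arrays with 95% intervals, grey bars the range when each array is left out, circles and squares chip 1 and chip 2 alone, and triangles the fit without ethanol 3 and ethanol 4. Only the Th interval, which ends at 0.997 times the control level, leaves out 0, and the Th difference is −0.57 on chip 1 and −0.07 on chip 2.

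The genes also differed in how much they varied within groups. The pooled SD within groups was 0.318 and 0.334 for the Ddc probes, at percentiles 86.3 and 88.9 of all tested probes, 0.28 for Th (percentile 77.6) and 0.178 for Maob (percentile 40.2). The median over all tested probes was 0.201. The 2 Ddc probes varied together across the 12 arrays, with Pearson's r of 0.82 (permutation adjusted p = 0.00576 over 4 relations) and Spearman's rho of 0.79 (permutation adjusted p = 0.0132). Within chips r was 0.84 and 0.77, and without control 1 and ethanol 3 it was 0.60 (permutation p = 0.0652), so that the relation rests partly on those samples. The levels of different genes showed no relation that passed. Pearson's r was 0.09 for Th and Ddc, 0.09 for Th and Maob and 0.16 for Ddc and Maob, each with a permutation adjusted p of 0.796. Spearman's rho was 0.15, −0.24 and 0.22, each with a permutation adjusted p of 0.637. Without the 2 arrays farthest from the median, r was −0.02, −0.29 and 0.14.

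The level of Ddc was inversely related to markers of striatal projection neurons, the main striatal cell type. The 3 samples highest in the brighter Ddc probe were ethanol 3, control 4 and ethanol 4, which belong to both groups. They were also the 3 lowest in these markers, at 11.95, 12.17 and 12.23 against 12.27 to 12.37 in the others. Across the 12 arrays r between Ddc and these markers was −0.87 (permutation adjusted p = 0.00072) and rho was −0.88 (permutation adjusted p = 0.0104), over 36 relations of Th, Ddc and Maob with 12 marker levels. Within chips r was −0.93 and −0.95, and without control 4 and ethanol 3 it was −0.85 (permutation p = 0.00333). When arrays were scaled to 1 median instead of quantile normalized, r was −0.32 (permutation p = 0.301), so this relation depends on how the arrays are scaled.

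The level of Ddc was also related to the mean level of 2 transcripts of the choroid plexus, the ventricular tissue that makes cerebrospinal fluid. The relation to each transcript alone is not given. The level of Ttr and Clic6, the tested ones of 6 listed choroid plexus genes, ran from 7.55 in control 1 to 11.07 in ethanol 3, which were also the lowest and the highest samples on the brighter Ddc probe. On the dimmer probe ethanol 1 was the lowest, at 7.42 against 7.44 in control 1. Pearson's r was 0.83 (permutation adjusted p = 0.0140) and rho 0.84 (permutation adjusted p = 0.0205). Within chips r was 0.89 and 0.70, without control 1 and ethanol 3 it was 0.64 (permutation p = 0.0507), and with median scaling it was 0.86. With astrocyte markers r was 0.73 (permutation adjusted p = 0.0816) and rho 0.52 (permutation adjusted p = 0.455), and without control 4 and ethanol 3 r was 0.34. With thalamus markers, over the 10 samples other than ethanol 3 and ethanol 4, r was 0.28 (permutation p = 0.423), and no value is given over all 12 because those 2 samples form a cluster of their own. These correlations were computed after the levels had been seen. What part tissue makeup has in the Ddc values was not tested.

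**Figure D3:**
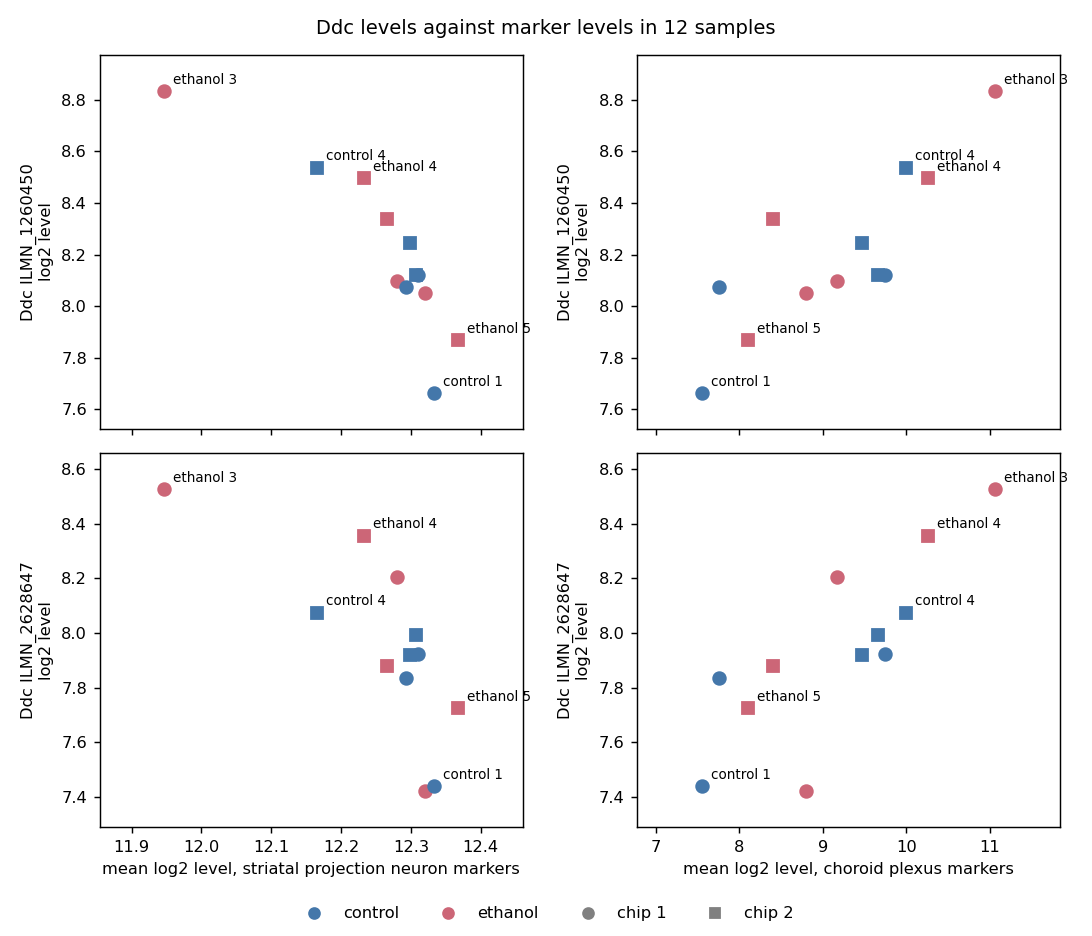
Log2 level of the brighter (top) and the dimmer (bottom) Ddc probe against the mean log2 level of 13 striatal projection neuron markers (left) and of 2 choroid plexus markers (right), 1 point per sample. Colours are the groups, circles chip 1 and squares chip 2. Ethanol 3 is the highest sample in Ddc and control 1 is among the lowest, and samples of both groups lie along each trend.

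Neither Th nor Maob had a relation to any of the 12 marker levels that passed. For Maob and the 13 tested astrocyte markers r was 0.18 (rho −0.19), with permutation adjusted p of 0.934 and 0.879. For Th and the 5 tested ependyma markers r was −0.50 (rho −0.47), with permutation adjusted p of 0.510 and 0.576. This r was −0.94 on chip 1 and −0.01 on chip 2, and −0.83 without control 4 and ethanol 4 (permutation p = 0.00269, not adjusted), so its size depends on the arrays included. Astrocyte markers were at 10.26 ± 0.17 in controls and 10.29 ± 0.19 in ethanol-exposed samples (SD, n = 6). The named genes whose tested probes were most like each member over the 12 arrays, by Pearson's r, were Anapc11, Arl9 and Artn for Th (0.87 each), and Ldoc1, Ttll5 and Vps33b for the brighter Ddc probe (0.93, 0.93 and 0.91). For Maob they were Cd8b1, Zfp664 and Yif1a (0.94, 0.90 and 0.88). These are the highest values among all tested probes and are given as a description. Ldoc1 was detected on 6 arrays and Arl9 on 9, so part of their values are only bounds.

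Markers of the neurons that make dopamine elsewhere in the brain were in part undetected. Of 14 markers of midbrain dopamine neurons other than the examined genes, 7 were detected on 0 arrays, among them the defining factor Pitx3, and also Lmx1b, En1, Foxa2, Chrna6, Chrnb3 and Gucy2c. The 5 that were tested were Nr4a2, Foxa1, Aldh1a1, Slc10a4 and Drd2, the last of which striatal neurons express strongly themselves. All 5 had lower means in ethanol-exposed samples, where 50.2% of all tested probes had higher means, and 0 passed. The mean level of these 5 ran between 7.47 and 8.25 in controls and between 7.23 and 7.87 in the ethanol group. Between Th and this level r was 0.04 (rho −0.22), with permutation adjusted p of 0.956 and 0.879. The part of this level in the Th difference was not tested. For noradrenaline neurons, Dbh, the enzyme that turns dopamine into noradrenaline, and the transporter gene Slc6a2 were detected on 0 arrays.

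None of the other genes of the pathway passed the test either. Lists covering the cofactors, other enzymes, carriers and regulators held 54 genes, of which 44 had a probe and 35 were tested, each by its brightest probe. Of these 21 had higher and 14 lower means in ethanol-exposed samples, 0 passed in either direction, and 1 had an unadjusted p under 0.05. The median difference was 0.01, against 0.00 for all tested probes, of which 50.2% had higher means. Without ethanol 3 and ethanol 4 the balance turned, with 12 higher, 23 lower, 0 passing and a median of −0.02, so the direction of these lists rests on those 2 samples. The balance of all tested probes without those 2 samples is not given, so a turn particular to these lists is not shown.

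The tetrahydrobiopterin list, which supplies the cofactor of tyrosine hydroxylase, had 6 of 8 genes tested, with 2 higher, 4 lower and 0 passing (median −0.02). Pcbd1, which recycles the cofactor, had 5.53 ± 0.31 in controls and 6.02 ± 0.34 in ethanol-exposed samples (SD, n = 6). The probe was detected on 5 control and 6 ethanol arrays, so the control mean includes a value that is only a bound. The Pcbd1 difference of 0.49 (SE 0.17) had an adjusted p of 0.845 in limma's test. Its relative Pcbd2 differed by −0.05 (SE 0.09) on its brighter probe and by −0.15 (SE 0.09) on the other. Without ethanol 3 and ethanol 4 the Pcbd1 difference was 0.54, and the brighter Pcbd2 probe had −0.11. Gch1, the first enzyme of cofactor synthesis, differed by −0.01 (SE 0.15), and by −0.06 without those 2 samples. Its tested probe was detected on 6 control and 5 ethanol arrays. The other Gch1 probe was detected on 2 control and 3 ethanol arrays and was not tested.

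Of the vitamin B6 list, the cofactor of Ddc, 3 of 4 genes were tested, with 2 higher and 1 lower (median 0.04). Alpl, a phosphatase that lets vitamin B6 enter cells, differed by 0.20 (SE 0.12). Pdxk, the kinase that activates the vitamin, differed by −0.13 (SE 0.12) on its brighter probe and by −0.28 (SE 0.13, adjusted p = 0.850 in limma's test) on the other.

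Among 12 other catecholamine enzymes and enzymes of later breakdown, 7 were tested, with 5 higher and 2 lower (median 0.01). Without ethanol 3 and ethanol 4 there were 2 higher and 5 lower (median −0.04). Aldh1a1, which oxidises the aldehyde left by the monoamine oxidases, had an SD of 1.09 in ethanol-exposed samples and of 0.22 in controls. Its values there spanned 5.26 in ethanol 4 to 8.16 in ethanol 3, with a mean of 6.85, and those of controls spanned 7.03 to 7.67, with a mean of 7.32 (n = 6). The difference of −0.47 (SE 0.38) had an adjusted p of 0.902 in limma's test, and the difference in spread was not tested. The Aldh1a1 probe was detected on 6 control and 5 ethanol arrays. Its ethanol mean, SD and difference thus include a value that is only a bound. Without ethanol 3 and ethanol 4 the ethanol values spanned 6.47 to 8.04, with an SD of 0.75 (n = 4), and the difference was −0.40 (SE 0.26). The aldehyde dehydrogenase Aldh3a2 differed by 0.10 (SE 0.09) on its brightest probe, or 0.05 without them, and by 0.01 (SE 0.07) on its other tested probe.

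Of 11 other monoamine carriers and uptake genes 4 were tested, with 3 higher and 1 lower (median 0.02). Without ethanol 3 and ethanol 4 there were 1 higher and 3 lower (median −0.07), and ethanol 3 was the highest ethanol-exposed sample in the list's level. Slc29a4, a low-affinity monoamine transporter, differed by 0.18 (SE 0.26), which became −0.17 (SE 0.21) without those 2 samples. Slc3a2, the heavy chain of the carrier that brings tyrosine and levodopa into cells, differed by −0.18 (SE 0.15). It was detected on 6 control and 4 ethanol arrays, so its difference includes values that are only bounds and is not a measured fold. Regulators of tyrosine hydroxylase and of the transporter had 15 of 19 genes tested, with 9 higher and 6 lower (median 0.02), against 6 higher and 9 lower (median −0.01) without ethanol 3 and ethanol 4. Stx1a, the syntaxin that binds the dopamine transporter, differed by −0.20 (SE 0.10, adjusted p = 0.854 in limma's test) and Prkaca, a catalytic subunit of protein kinase A, which phosphorylates tyrosine hydroxylase, by −0.12 (SE 0.07).

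**Figure D4:**
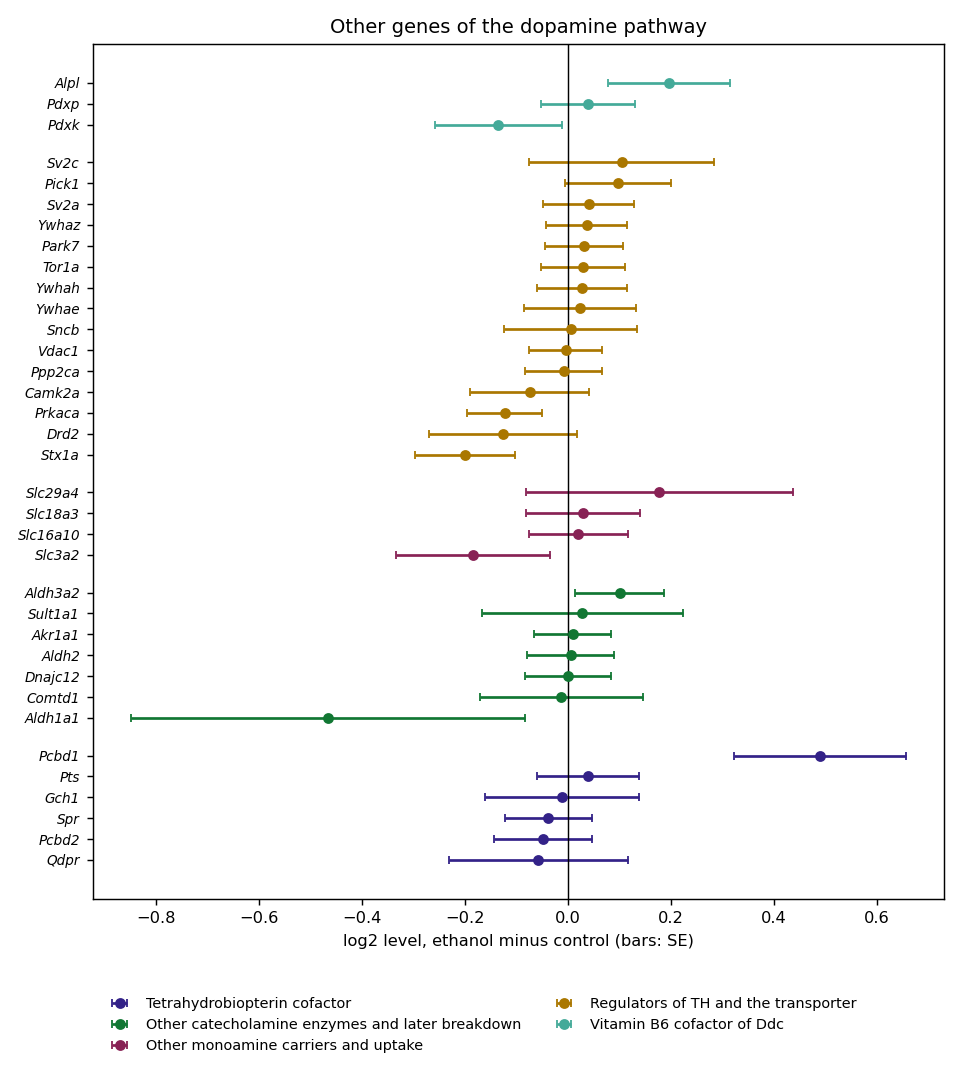
Difference in log2 level, ethanol minus control (horizontal axis), with its SE for the 35 tested genes of 5 pathway lists, each by its brightest probe and coloured by list. Pcbd1, at 0.49, and Aldh1a1, at −0.47, lie farthest from 0, and 0 genes passed adjustment. Means were higher for 21 genes, and for 12 without ethanol 3 and ethanol 4.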

How the data were processed

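Each of 12 total RNA samples was measured on 1 Illumina bead array. The deposited intensities are linear and not normalized between arrays, and a detection p-value stands beside each, per the file headers. The authors' normalized intensities, also deposited, have equal quartiles on all arrays. The submitters' processing notes name GenomeStudio 1.9.0, without its background setting.

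With limma 3.58.1 in R 4.3.3, background was estimated through the detection p-values and removed from the raw intensities, and 16 was added. The arrays were then quantile normalized and the values put on the log2 scale (the steps of neqc). The offset shrinks differences near background. Of 45281 probes 20296 (44.8%), with detection p under 0.05 on at least 6 arrays, were tested with lmFit and eBayes, two-sided, without covariates, at an adjusted p under 0.05 (Benjamini-Hochberg over all tested probes). The number of arrays limits the precision. The fit was tested on simulated data. The root mean square difference of the closest pair of arrays was 0.272 on the log2 scale, and none was counted as a copy.

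In the annotation 34885 probes have 1 symbol, 18 have several and 10378 have none, and the 6 genes matched the reference table by gene ID. No build is stated for the arrays. Levels of different probes were not compared. A list's level is the mean log2 level of its genes' brightest tested probes. Correlations with marker levels, and the values of single pathway genes and Tph2 without ethanol 3 and ethanol 4, were added after the data had been seen. Correlations used 100000 permutations, two-sided. Named were the examined genes, the 2 genes of smallest p in each pathway list with Gch1 and Dbh, the 3 most alike genes per member, and defining markers. A further gene of the rule is not reported here. Genes and lists were chosen with earlier results of these data known.

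Alternatives were other background, offset, scaling, filter, chip, replicate, variance and weight settings, the authors' normalized intensities, and leaving out arrays.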

Additional observations from a re-analysis of the deposited data

Results flagged for a closer look

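Samples far from the others of their group, by the gap to the nearest sample over the range of the group, were sought for 38 probes and list levels in both groups. Of 76 groups 11 held such a sample, where chance flags about 1 in 20. Ethanol 1 was low for Th, at 5.52 against 6.29 to 6.53 in the other ethanol-exposed samples, and low for Gch1, at 5.30 against 5.77 to 5.93. The Gch1 probe was detected on only 5 of 6 ethanol arrays. Control 4 was high for astrocyte markers (10.59 against 10.15 to 10.30), for oligodendrocyte markers (12.20 against 11.40 to 11.66) and for markers of TH interneurons and related striatal interneurons (10.06 against 9.72 to 9.85). For markers of striatal projection neurons control 4 was low at 12.17 (the others 12.29 to 12.33), as was ethanol 3 at 11.95 (the others 12.23 to 12.37). Ethanol 3 was high for the list of other monoamine carriers, at 6.65 against 6.21 to 6.30. Control 2 was high for cortical excitatory neuron markers (8.70 against 7.63 to 7.89) and for the regulators of tyrosine hydroxylase and the transporter (11.35 against 11.22 to 11.26). Control 6 was high for the vitamin B6 list, at 10.10 against 9.72 to 9.84.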

How the results depend on the processing

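No probe passed the adjusted threshold in limma's test under any of 28 alternatives, and at an unadjusted p under 0.05 there were 1175, or 2420 without a filter and 2051 on chip 2 alone. The Th difference was negative in all 29 alternatives, from −0.57 to −0.07, with adjusted p of 0.668 or more. Changes of filter, block, variance setting or test cannot alter this difference, which stays at −0.32. Only the other alternatives could have changed its sign. The Ddc difference changed sign on chip 2 alone (−0.066 and −0.0085) and without ethanol 3 and ethanol 4 (−0.038 and −0.056). The Maob difference turned positive on chip 1 alone (0.039), with array weights (0.020) and without ethanol 3 and ethanol 4 (0.033). Leaving out each array gave −0.38 to −0.18 for Th, 0.04 to 0.24 and 0.05 to 0.27 for Ddc, −0.057 to 0.046 for Maob, and −0.20 to 0.063 for the chip interaction of Maob. Pathway lists had 0 passing genes in 5 alternatives, but without ethanol 3 and ethanol 4 the medians of 3 lists turned negative, as did Slc29a4 (−0.17) and the dimmer tested Aldh3a2 probe (−0.016). With median scaling the medians of the other enzymes (−0.0166) and of the regulators (−0.0036) were also negative, the latter as well with a gene's probes averaged (−0.0082). The median of all tested probes was itself −0.0197 with median scaling, lower than those of both lists. Same-numbered samples correlated at −0.14 to 0.28 after removing group means, which does not decide whether the replicate numbers pair the samples. With replicate number as a block 1425 probes had an unadjusted p under 0.05, and Th had −0.32 (adjusted p = 0.674), and no call changed. Of the relations between Ddc and marker levels, that with projection neurons fell to −0.32 with median scaling, and the cause was not tested. Th lay close to background, and its difference was −0.22 with an offset of 50 and −0.13 without background correction.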

Other observations

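Tph2, the enzyme that commits tryptophan to serotonin in neurons, was read beside Ddc, which makes the second step. Its log2 level had a lowest, median and highest value of 6.34, 6.53 and 7.07 in controls and of 4.95, 5.75 and 6.74 in ethanol-exposed samples. It was detected on 6 control arrays and on 3 ethanol arrays, which were those of chip 1. The fitted difference of −0.82 (SE 0.26) did not pass, with an adjusted p of 0.845 in limma's test. It includes 3 ethanol-exposed samples with only a bound, since on chip 2 their detection p-values were 0.0545 to 0.193, so its size is not a measured fold. On chip 1, where every sample was detected, the difference was −0.15. On chip 2 it was −1.49, with ethanol-exposed values, all undetected, of 4.95 to 5.35 and detected control values of 6.41 to 7.07. Of the 6 listed markers of serotonin neurons other than Maob, 4 had a probe, only Tph2 was tested, and the transporter gene Slc6a4 was detected on 2 arrays at most. Tph2 was read because it stood on a marker list, and its values were not among the tests of the pathway.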
